A study of Mus musculus with 568 samples.

Results

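The oocyte programme genes described here are 9 genes with a role in building the oocyte: Figla, Nobox, Lhx8, Sohlh1, Sohlh2, Taf4b, Ybx2, Gdf9 and Zp3. They were taken by name, and of the 9, 8 are listed among the 15718 genes of the single-cell table and 4 (Sohlh2, Taf4b, Ybx2 and Zp3) among the 16335 genes of the bulk table. Lhx8 is listed in neither table, and Figla, Nobox, Sohlh1 and Gdf9 are not listed in the bulk table, so no level is given for them there.

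In the mouse ovary, germ cells that have entered meiosis switch on a set of transcription factors before follicles form. SOHLH1 and SOHLH2 are basic helix-loop-helix factors that act early, FIGLA is another member of that family, which is needed for follicle formation and for the zona pellucida genes, and NOBOX and LHX8 are homeodomain factors of the young oocyte. TAF4B is a germ cell-enriched subunit of the general transcription factor TFIID, YBX2 (also called MSY2) is an RNA-binding protein that stabilises stored messages in germ cells, GDF9 is a growth factor secreted by the growing oocyte, and ZP3 is a glycoprotein of the zona pellucida, the coat of the egg. GDF9 and ZP3 are known mainly as products of growing oocytes, a phase that follows entry into meiosis.

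The cells were XRep cells, a female embryonic stem cell (ESC) line of the hybrid strain 129S1/SvImJ, CAST/EiJ. All of them carry a truncated Tsix on the 129S1/SvImJ X chromosome, which makes that X the one to be silenced, a GFP reporter on it (XGFP), a tdTomato reporter on the CAST/EiJ X (XTomato), and doxycycline-inducible Blimp1, Prdm14 and Tfap2c, so that germ cell fate was driven by these transgenes rather than by cytokines. Bulk RNA was sequenced from ESCs, epiblast-like cells (EpiLCs) and primordial germ cell-like cells (PGCLCs) at day 5, the latter sorted as CD61+, SSEA1+, XTomato+ and either XGFP+ (both X chromosomes active) or XGFP- (1 silenced), with 4 libraries each. For reconstituted ovaries (rOvaries), sorted PGCLCs were grown for 6 days with somatic cells of female embryonic gonads and mesonephros (E13.5, CD1/ICR strain mice). Single XTomato+ cells were then sequenced. From XGFP+ PGCLCs these were XGFP+ cells (XGFP+ constitutive, 94 wells). From XGFP- PGCLCs they were the cells with high (XGFPhigh), intermediate (XGFPintermediate) or low (XGFPlow) GFP (424 wells over the 3). There were also 24 single ESCs and 10 empty wells.

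A well entered the analysis if it held 4000 genes or more, 10000 reads or more, and no more than 5% of reads from mitochondrial genes. This left 462 rOvary cells, of which 88 were XGFP+ constitutive and 125 XGFPhigh. The others were XGFPintermediate or XGFPlow, with 7 more of the former, and all 24 ESCs were kept. The median number of reads on genes per kept cell was 354149 for XGFP+ constitutive, 636623 to 645474 for the other rOvary populations and 1103780 for ESCs, and no empty well held more than 242 reads or a read of any member. The XGFP+ constitutive cells were all sequenced on lane 2 and most other rOvary cells on lane 3, where lane 2 holds 14 XGFPhigh, 16 XGFPintermediate and 15 XGFPlow cells, so only those few can be compared with the XGFP+ constitutive cells within a lane. None of the ESCs is on lane 2 or lane 3, so ESCs cannot be compared with any rOvary cells within a lane. No culture is named for a cell, so each population counts as 1 sample: shares of cells and summed levels (CPM, a gene's reads over all cells per 1000000 reads on genes) are given with intervals that cover counting error only, and no test between populations was made. In bulk libraries, fewer cells of a type and less RNA per cell cannot be told apart.

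On the GRCm38.p6 assembly, RefSeq holds a window of 250 bases before to 50 bases after the start for 7 of the 9 members. The windows of 4 members are shown: 3 transcription factors that had a higher summed level in cells high in the meiotic gene Sycp3, and Zp3, which had no read in those cells. The capitals mark the letters CANNTG, the E-box that basic helix-loop-helix factors such as FIGLA, SOHLH1 and SOHLH2 recognise. Figla (chr6:86016941-86017240, plus strand), Nobox (chr6:43309505-43309804, minus strand), Sohlh1 (chr2:25847199-25847498, minus strand) and Zp3 (chr5:135979855-135980154, plus strand) read, from 5′ to 3′:
Figla: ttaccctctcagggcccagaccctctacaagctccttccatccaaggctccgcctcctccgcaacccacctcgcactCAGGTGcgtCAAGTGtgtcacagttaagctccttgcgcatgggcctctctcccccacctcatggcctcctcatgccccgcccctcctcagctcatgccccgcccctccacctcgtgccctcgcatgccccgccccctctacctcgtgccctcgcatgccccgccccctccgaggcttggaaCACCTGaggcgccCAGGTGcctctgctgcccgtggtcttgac
Nobox: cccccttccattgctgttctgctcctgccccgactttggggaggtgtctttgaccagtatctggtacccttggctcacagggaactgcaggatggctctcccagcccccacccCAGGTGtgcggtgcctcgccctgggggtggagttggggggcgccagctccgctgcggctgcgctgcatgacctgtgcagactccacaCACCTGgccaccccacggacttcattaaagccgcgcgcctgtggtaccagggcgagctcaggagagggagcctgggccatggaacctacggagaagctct
Sohlh1: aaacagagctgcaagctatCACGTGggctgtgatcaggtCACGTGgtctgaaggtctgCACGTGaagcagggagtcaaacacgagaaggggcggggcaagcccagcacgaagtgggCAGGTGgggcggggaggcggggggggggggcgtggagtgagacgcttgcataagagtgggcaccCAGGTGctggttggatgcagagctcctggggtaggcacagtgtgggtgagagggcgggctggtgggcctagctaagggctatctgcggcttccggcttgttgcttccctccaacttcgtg
Zp3: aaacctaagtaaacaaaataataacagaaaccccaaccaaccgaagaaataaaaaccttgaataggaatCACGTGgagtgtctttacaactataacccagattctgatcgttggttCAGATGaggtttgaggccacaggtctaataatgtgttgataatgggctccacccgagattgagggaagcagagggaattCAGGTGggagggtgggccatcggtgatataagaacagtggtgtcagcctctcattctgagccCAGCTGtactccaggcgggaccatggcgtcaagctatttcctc

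The Sohlh1 window held 5 matches to CANNTG, 3 of which were CACGTG, and they began at -231, -211 and -192 for CACGTG, with another at -70, counted from the start. The Figla window held 4 matches, 2 of them before the start (from base -173 and from base -164) and 2 after it. The Nobox window held 2, from base -137 and from base -50. The Zp3 window held 4, 1 of them CACGTG, at -181, and another at -55. Both strands were searched, and CANNTG reads the same on both; a CACGTG match is also a CANNTG match. Of all 32851 windows of this length, 72.3% hold CANNTG, 7.15% hold CACGTG and 8.0% hold TAATTG, a homeodomain-type sequence that none of these 4 windows held. A match to CANNTG is therefore common and says only that the letters are there. The RefSeq start of Figla lies inside the gene as GENCODE draws it.

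Figla (chr6:86016171-86020996), Nobox (chr6:43303674-43309554), Sohlh1 (chr2:25842995-25847248), Sohlh2 (chr3:55182028-55209957), Lhx8 (chr3:154306294-154330659), Taf4b (chr18:14783245-14900359), Ybx2 (chr11:69935796-69941605), Gdf9 (chr11:53431023-53437904) and Zp3 (chr5:135980099-135988624) are placed by GENCODE vM21 on the GRCm38 assembly (mm10). No exon of a member shares a base with an exon of another gene in that annotation.

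Cells with high Sycp3 were used as the meiotic cells of the rOvaries. SYCP3 is a protein of the axis that forms along chromosomes at the start of meiosis. High Sycp3 was taken as the 90th percentile of Sycp3 CPM over the kept rOvary cells, 466 CPM, where the last cell inside had 467 and the first cell outside 457. This gave 47 cells: 30 XGFPintermediate (23.4% of that population), 9 XGFPlow (7.44%), 7 XGFPhigh (5.60%) and 1 XGFP+ constitutive (1.14%). Their median depth (617654 reads) was close to that of the other 415 cells (599280), and they held fewer genes (median 6599 against 7877). Sycp3 was also the gene that chose them, so its own level is not a result. As a check of the name, 8 other meiotic markers, without Sycp3, summed to a median of 7350 CPM in these cells (3130 to 14700) and 1420 CPM in the others (0 to 12800, so the ranges overlap), and 6 germ cell markers to 5270 and 3480 CPM.

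Of the 8 listed members, 5 (Figla, Nobox, Sohlh1, Taf4b and Ybx2) were at least 2-fold higher in summed CPM in the high-Sycp3 cells than in the other rOvary cells, 2 (Gdf9 and Zp3) had no read there and were at least 2-fold lower (Gdf9 is at background by its share), and Sohlh2 was between these limits. Over all 15718 genes, 17.9% were at least 2-fold higher and 36.3% at least 2-fold lower by the same rule. The median log2 fold was 2.21 over the 8 members and -0.40 over all genes. Thinned to 280000 reads a cell, the shares of high-Sycp3 and other cells with a read were 86.7% and 10.4% for Figla, 22.2% and 1.52% for Nobox, 15.6% and 4.82% for Sohlh1, 88.9% and 75.1% for Taf4b, and 0% and 19% for Zp3. Of the 4 transcription factors Figla, Nobox, Sohlh1 and Sohlh2, 24 of the 47 high-Sycp3 cells held reads of 2, 12 held 3 and 2 held all 4, against 46, 11 and 1 of the other 415.

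Figla had the clearest split. It had a read in 39 of the 47 high-Sycp3 cells (83%, exact 95% interval 69.2% to 92.4%) and in 45 of the other 415 (10.8%, 8.02% to 14.2%). Its summed level was 105 CPM against 4.80 CPM, a 21.8-fold difference (20.4 to 23.3). Within populations it was 96.8-fold in XGFPhigh (7 high-Sycp3 cells), 19.7-fold in XGFPintermediate (17.7 to 21.9) and 4.87-fold in XGFPlow (4.2 to 5.64), so its size differed between them but not its direction. Among high-Sycp3 cells with a read, Figla ran from 9.76 to 472 CPM with a median of 81.5. No ESC had a Figla read (0 of 24, which allows a share of up to 12.5%).

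The share of cells with Figla was larger in each higher class of Sycp3. It was 4.24% in cells without a Sycp3 read, 7.57% in the 251 cells with a read but below the 80th percentile, 45.7% in the 46 cells between the 80th and 90th, 69.6% in the 23 between the 90th and 95th, and 95.8% in the 24 at or above the 95th. The intervals of the first pair overlapped and lay below those of the other classes, and neighbouring classes above the 80th percentile overlapped. The summed level went from 25.9 CPM to 49.5 and 157 CPM over the last 3 classes. A few cells without Sycp3 still held Figla, 5 cells in all, with a highest value of 145 CPM.

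**Figure D1:**
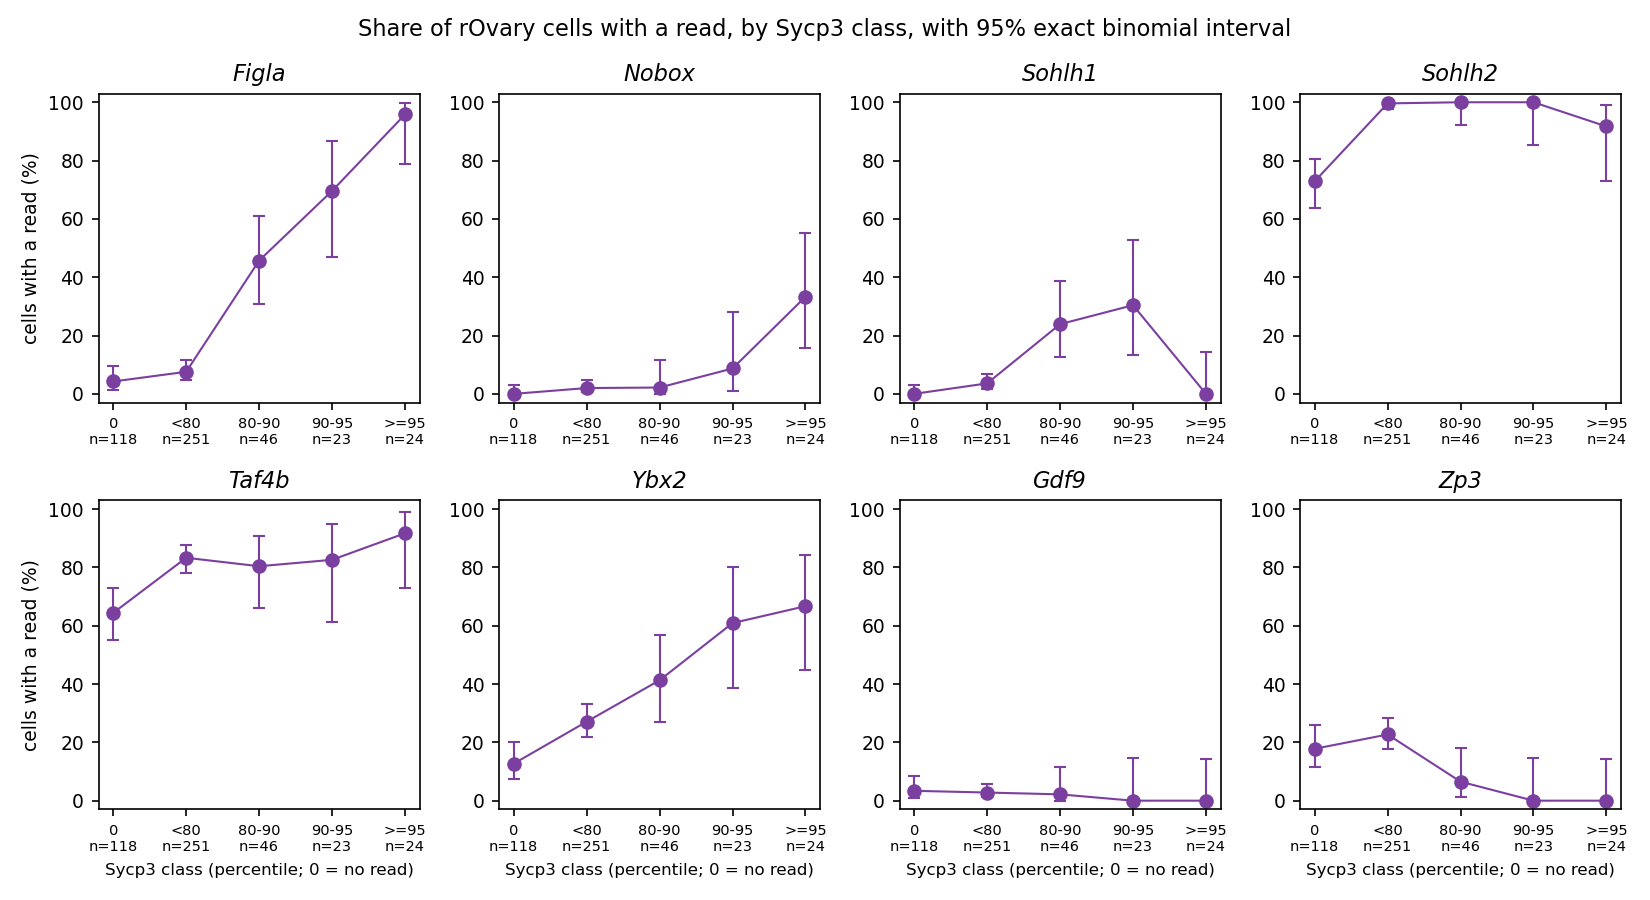
Share of kept rOvary cells with at least 1 read of each of the 8 listed members (y axis, percent) in 5 classes of Sycp3 CPM (x axis, percentile of Sycp3; 0 stands for cells without a Sycp3 read), with exact 95% binomial intervals. Figla climbed from 4.24% to 95.8%, Sohlh1 was at 30.4% in the class from the 90th to the 95th percentile and at 0 of 24 cells above it, and Zp3 was at 0 in both upper classes.

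Nobox was rarer and lay at the far end of the Sycp3 range. It had a read in 10 of the 47 high-Sycp3 cells (21.3%, 10.7% to 35.7%) and in 6 of the other 415 (1.45%, 0.532% to 3.12%), with summed levels of 15.2 CPM (13.9 to 16.7) and 0.582 CPM (0.491 to 0.685). That was a 26.2-fold difference (21.6 to 31.8), although 20% of all Nobox reads in rOvary cells came from 1 cell. It was 28.8-fold within XGFPintermediate and 15-fold within XGFPhigh, and was not seen within XGFPlow, where the 9 high-Sycp3 cells had 0 reads and the others 22. These folds count reads, which are not independent within a cell, and only 6 of the other 415 cells held Nobox. By class, Nobox was seen in 8 of the 24 cells at or above the 95th percentile (33.3%), in 2 of 23 between the 90th and 95th, and in none of those without Sycp3, which allows a share of up to 2.54%. One ESC of 24 had Nobox reads (4.17%, 7 reads), so the share over all rOvary cells (3.46%) was no higher than that in ESCs. The share in high-Sycp3 cells was higher, but its interval overlapped that of ESCs (0.105% to 21.1%). All 10 high-Sycp3 cells with Nobox also held Figla, as did 39 of those 47 cells in all.

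Sohlh1 took a middle place. It had a read in 7 of the 47 high-Sycp3 cells (14.9%, 6.20% to 28.3%) and in 20 of the other 415 (4.82%, 2.97% to 7.35%), with 9.27 CPM (8.21 to 10.4) against 1.61 CPM (1.45 to 1.77), a 5.77-fold difference. All 7 lay between the 90th and 95th percentiles, where 7 of 23 cells held it (30.4%, 13.2% to 52.9%). At or above the 95th percentile it was in 0 of 24 cells (up to 12.5%), and between the 80th and 90th in 11 of 46 (23.9%). Cells with Sohlh1 had Sycp3 levels from 26 to 1050 CPM with a median of 151, whereas cells with Nobox had a median of 1170 CPM and reached 4550 CPM. The direction of the Sohlh1 difference therefore depended on the limit: with the 95th percentile in place of the 90th, the upper cells had 0 reads and a summed level at most 0.0771 of that in the others. That bound counts reads, which are not independent within a cell, and 0 of 24 cells allows a share of up to 12.5%. With XGFPintermediate cells alone, the Sohlh1 difference was 1.37-fold, and with XGFPlow cells alone it was 17.1-fold. Over all 462 cells, Sohlh1 and Figla were found together in 18 of the 27 cells with Sohlh1.

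Sohlh2, the partner of SOHLH1, behaved differently from it. It was present in 45 of the 47 high-Sycp3 cells (95.7%) and in 382 of the other 415 (92%), and its summed level was 212 CPM (206 to 217) against 331 CPM (328 to 333). It was thus 1.56-fold lower in the high-Sycp3 cells, and by class it went from 394 CPM between the 80th and 90th percentiles to 253 and 172 CPM above. Of the 35 kept rOvary cells without a Sohlh2 read, 29 had no read of the germ cell gene Dazl, and the summed CPM of 12 gonadal somatic markers reached 16800 in the 35 and 327 in the 427 cells with Sohlh2. Whether these are somatic cells was not tested.

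Taf4b was seen in most cells of every kind and differed in level. It had a read in 41 of the 47 high-Sycp3 cells (87.2%), in 322 of the other 415 (77.6%) and in 19 of the 24 ESCs (79.2%). The summed level was 239 CPM (234 to 245) in high-Sycp3 cells and 36.2 CPM (35.5 to 37.0) in the others, a 6.6-fold difference, and between 12.1 and 15.0 CPM (95% interval) in ESCs. By class it was 25.1 CPM without Sycp3, 37.3 CPM below the 80th percentile, 56.9 CPM from there to the 90th and 339 CPM in the top class. The difference was 15.7-fold within XGFPhigh, 5.08-fold within XGFPintermediate and 2.01-fold within XGFPlow, where 7, 30 and 9 cells were high in Sycp3.

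Ybx2 had few reads per cell. It was in 30 of the 47 high-Sycp3 cells (63.8%, 48.5% to 77.3%), in 102 of the other 415 (24.6%, 20.5% to 29%) and in 2 of 24 ESCs with 1 read each. The summed levels were 12 CPM (10.8 to 13.3) and 3.24 CPM (3.02 to 3.48), a 3.70-fold difference (3.26 to 4.20), and the highest cell had 77.1 CPM. The difference was 10.7-fold within XGFPhigh (6.81 to 16.5), 2.14-fold within XGFPintermediate (1.81 to 2.53) and 3.35-fold within XGFPlow (2.62 to 4.24). Thinned to 280000 reads a cell, the shares were 55.6% and 21.8%.

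Neither member linked to oocyte growth had a read in the high-Sycp3 cells. Zp3 had no read in any of the 47 (0 of 47, which allows a share of up to 6.38%) and a read in 81 of the other 415 (19.5%, 15.8% to 23.7%), where it summed to 5.72 CPM (5.42 to 6.02). Against a floor of 3 reads over the 47 cells, the summed level was at least 56.2-fold lower. That bound counts reads, which are not independent within a cell. By cells the bound is looser, a share of up to 6.38% against 19.5%. Of the 47 cells, 30 were XGFPintermediate and 9 XGFPlow. Those populations held little Zp3 (3.23% and 4.42% of cells thinned to 280000 reads), so the pooled values mix population with Sycp3. Within XGFPhigh, the 7 high-Sycp3 cells had 0 Zp3 reads and the other cells 822. Within XGFPintermediate and XGFPlow, the high-Sycp3 cells also had 0 reads, and the other cells had 86 and 163, from few cells. Cells with Zp3 had at most 160 CPM of Sycp3 (median 6.67), and 21 of the 81 had no Sycp3 read. Zp3 was in 17 of 24 ESCs (70.8%, 48.9% to 87.4%) at 18.5 CPM, above any rOvary population.

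Gdf9 was close to not detected. It had a read in 12 of 462 rOvary cells (2.60%, 1.35% to 4.49%), no more than in ESCs (1 of 24, 4.17%), and in 0 of the 47 high-Sycp3 cells. Of its 192 reads, 37.5% came from 1 cell, so its share is read as background and its level between populations is given no direction.

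**Figure D2:**
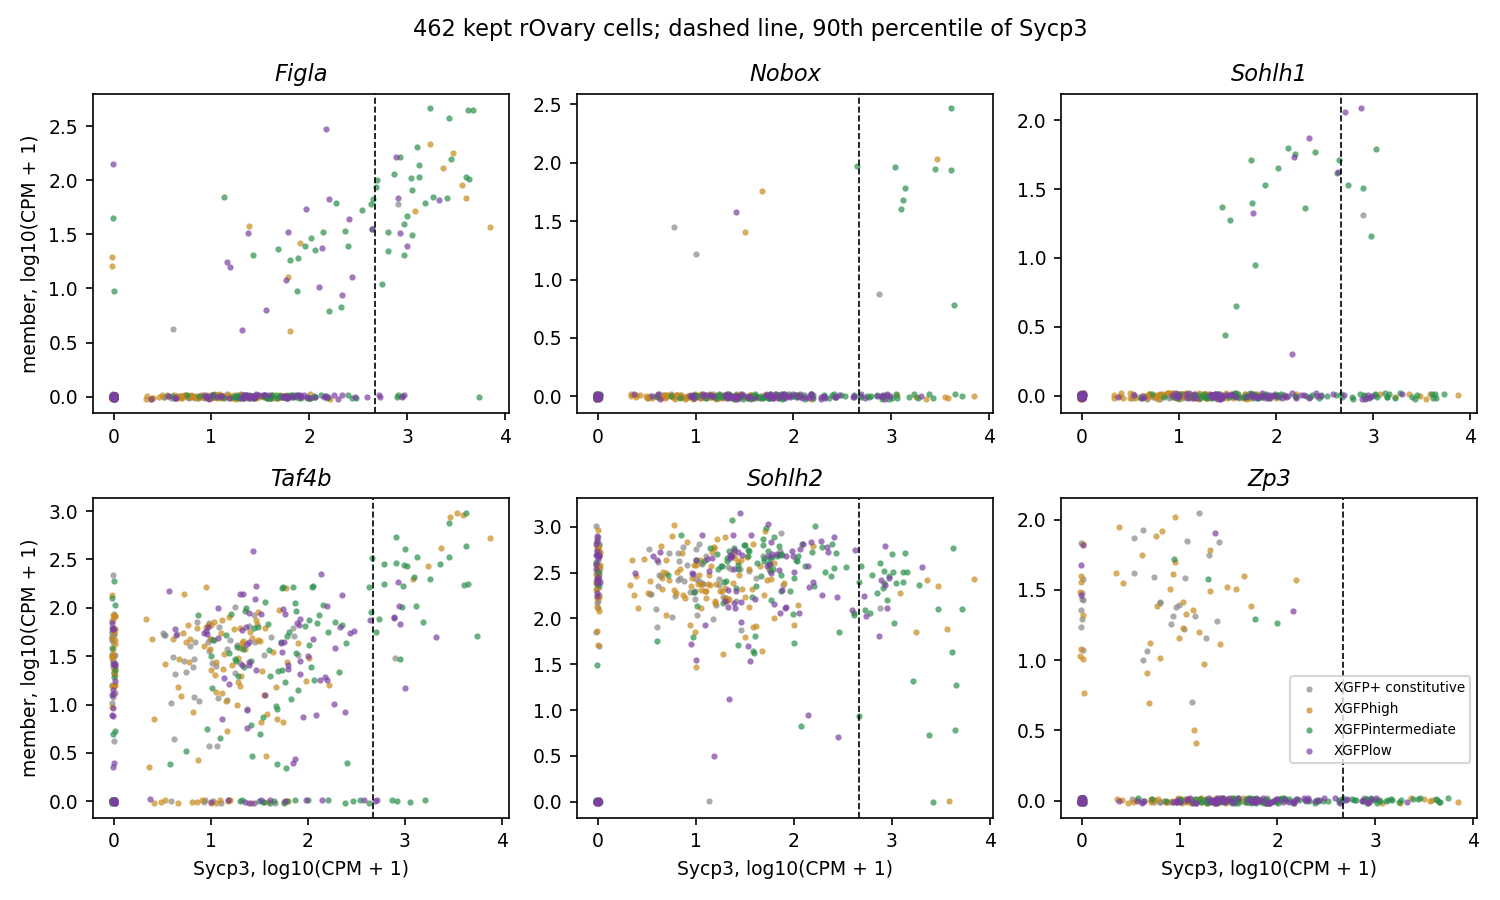
Each point is 1 of the 462 kept rOvary cells, coloured by sorted population. The x axis is Sycp3 and the y axis a member, both as log10(CPM + 1), with a small random shift of the points, and the dashed line marks 466 CPM of Sycp3. Figla and Nobox reads lie mostly to the right, Sohlh1 reads around the line and not at the right end, and Zp3 reads to the left, where no cell with Zp3 has more than 160 CPM of Sycp3.

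Since genes differ in length, levels between members were compared as summed CPM per kilobase of exon. In the high-Sycp3 cells the order was Figla, then Sohlh2 (89.7), Taf4b (46.4), Nobox (7.55), Sohlh1 (7.19) and Ybx2 (6.37), the last 3 close together. In the other rOvary cells it was Sohlh2 (140), Taf4b (7.03), Figla (5.74), Zp3 (4.32), Ybx2 (1.72), Sohlh1 (1.25), Gdf9 (0.380) and Nobox (0.289). Within populations the order of the high-Sycp3 cells differed. Sohlh2 came first and Figla second in XGFPlow (54.7 for Figla), and Taf4b came second, above Sohlh2 (69.8), in XGFPhigh.

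By sorted population, Figla, Sohlh1 and Ybx2 were seen most in XGFPintermediate cells, Zp3 in XGFP+ constitutive and XGFPhigh cells, and Sohlh2 and Taf4b in most cells of every population. Nobox and Gdf9 were rare and are placed in none of these sets. Comparing XGFPintermediate with XGFPhigh, 5 of the 8 listed members (Figla, Nobox, Sohlh1, Ybx2 and Gdf9) were at least 2-fold higher in summed CPM and 1 (Zp3) at least 2-fold lower, where 22.8% and 10.5% of all genes were. Of the 5, Gdf9 has no direction that can be read: all its reads in XGFPintermediate came from 1 cell (0.781% of cells), and its share was larger in XGFPhigh (4.00%). On lane 2 alone, with few cells of each population, 1 of the 8 members was at least 2-fold higher.

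Figla was found in 2 of 88 XGFP+ constitutive cells (2.27%, 0.276% to 7.97%), 13 of 125 XGFPhigh (10.4%, 5.65% to 17.1%), 47 XGFPintermediate cells (36.7%, 28.4% to 45.7%) and 22 XGFPlow cells (18.2%, 11.8% to 26.2%). The summed levels were 0.636, 8.08, 31.4 and 11.8 CPM. The XGFPintermediate share lay above the intervals of the other 3, and those of XGFPhigh and XGFPlow overlapped. On lane 2 alone, Figla was in 2 of 16 XGFPintermediate cells (12.5%, 1.55% to 38.3%), 3 of 15 XGFPlow and 1 of 14 XGFPhigh, so the order of XGFPintermediate and XGFPlow turned there, with overlapping intervals. The 13 XGFPhigh cells with Figla included all 7 that were high in Sycp3. Without the high-Sycp3 cells of both populations, XGFPintermediate was still 5.57-fold above XGFPhigh (4.40 to 7.11), a comparison chosen after the data were seen.

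Ybx2 was in 6 of 88 XGFP+ constitutive cells (6.82%), 14 of 125 XGFPhigh (11.2%), 66 XGFPintermediate (51.6%) and 46 XGFPlow cells (38%). Its summed level was 7.25 CPM in XGFPintermediate, 6.74-fold (5.39 to 8.51) above that in XGFPhigh, and 5.58 CPM in XGFPlow. XGFPintermediate and XGFPlow had overlapping intervals, both above those of the XGFPhigh and XGFP+ constitutive cells, whose shares were near that of ESCs (8.33%).

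Sohlh1 was in 19 XGFPintermediate cells (14.8%, 9.18% to 22.2%) and 7 XGFPlow cells (5.79%, 2.36% to 11.6%), against 1 of 88 XGFP+ constitutive and 0 of 125 XGFPhigh (up to 2.40%). The summed levels of 4.37 CPM in XGFPintermediate and 3.74 CPM in XGFPlow were set against the floor of 3 reads in XGFPhigh, and XGFPintermediate was at least 120-fold higher by reads. Reads are not independent within a cell, and by cells the bound is looser, 14.8% against up to 2.40%. Nobox was in 9 XGFPintermediate cells (7.03%, 3.27% to 12.9%), 3 of 125 XGFPhigh (2.40%), 3 of 88 XGFP+ constitutive (3.41%) and 1 XGFPlow cell (0.826%), with overlapping intervals throughout and none above the ESC interval. Without high-Sycp3 cells, Nobox was 0.935-fold (0.626 to 1.39) in XGFPintermediate against XGFPhigh, from 48 and 60 reads. Only 6 of all kept rOvary cells outside high Sycp3 held Nobox, and reads are not independent within a cell. That interval is therefore too narrow, and neither a difference nor its absence can be read from so few cells.

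Zp3 ran the other way. It was in 31 of 88 XGFP+ constitutive cells (35.2%, 25.3% to 46.1%) and 41 of 125 XGFPhigh (32.8%, 24.7% to 41.8%), and in 4 XGFPintermediate (3.12%, 0.858% to 7.81%) and 5 XGFPlow cells (4.13%, 1.36% to 9.38%). The summed levels were 11.2, 9.94, 1.02 and 2.04 CPM, 9.80-fold lower in XGFPintermediate than in XGFPhigh. Over the 462 cells, Spearman's rho of Zp3 was 0.46 with Nanog and 0.41 with Zfp42, naive pluripotency genes. Within populations it was lower: 0.35 and 0.30 in XGFPhigh, 0.27 and 0.15 in XGFPintermediate, and 0.13 and 0.10 in XGFPlow. The 5 naive pluripotency markers (Zfp42, Esrrb, Klf4, Nanog and Tbx3) summed to a median of 652 CPM in XGFP+ constitutive and 941 CPM in XGFPhigh cells, 110 CPM in XGFPintermediate and 97.4 CPM in XGFPlow. Their sum was 2330 CPM in ESCs and 77.8 CPM in high-Sycp3 cells, where Tbx3 was at 0, and their part in the Zp3 result was not tested.

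Sohlh2 and Taf4b were widespread. Sohlh2 was in 98.9% of XGFP+ constitutive, 99.2% of XGFPhigh, 90.6% of XGFPintermediate and 82.6% of XGFPlow cells, at 302 to 352 CPM, and in 3 of 24 ESCs (12.5%, 2.66% to 32.4%) at 12.2 CPM. Among cells with a natural-log normalised Dazl above 1, the shares in XGFPintermediate and XGFPlow were 98.3% and 100%. Taf4b was in 86.4%, 82.4%, 78.1% and 69.4% of the 4 populations in the same order, at 31.9, 65.4, 77.4 and 39.3 CPM.

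Depth differed most for the XGFP+ constitutive cells. Thinned to 280000 reads a cell and in the same order of populations, Figla was in 2.53%, 10.6%, 36.3% and 17.7% of cells. Ybx2 was in 5.06%, 10.6%, 44.4% and 34.5%, and Zp3 in 32.9%, 32.5%, 3.23% and 4.42%. For each of these 3 genes the populations stood in the same order as without thinning.

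**Figure D3:**
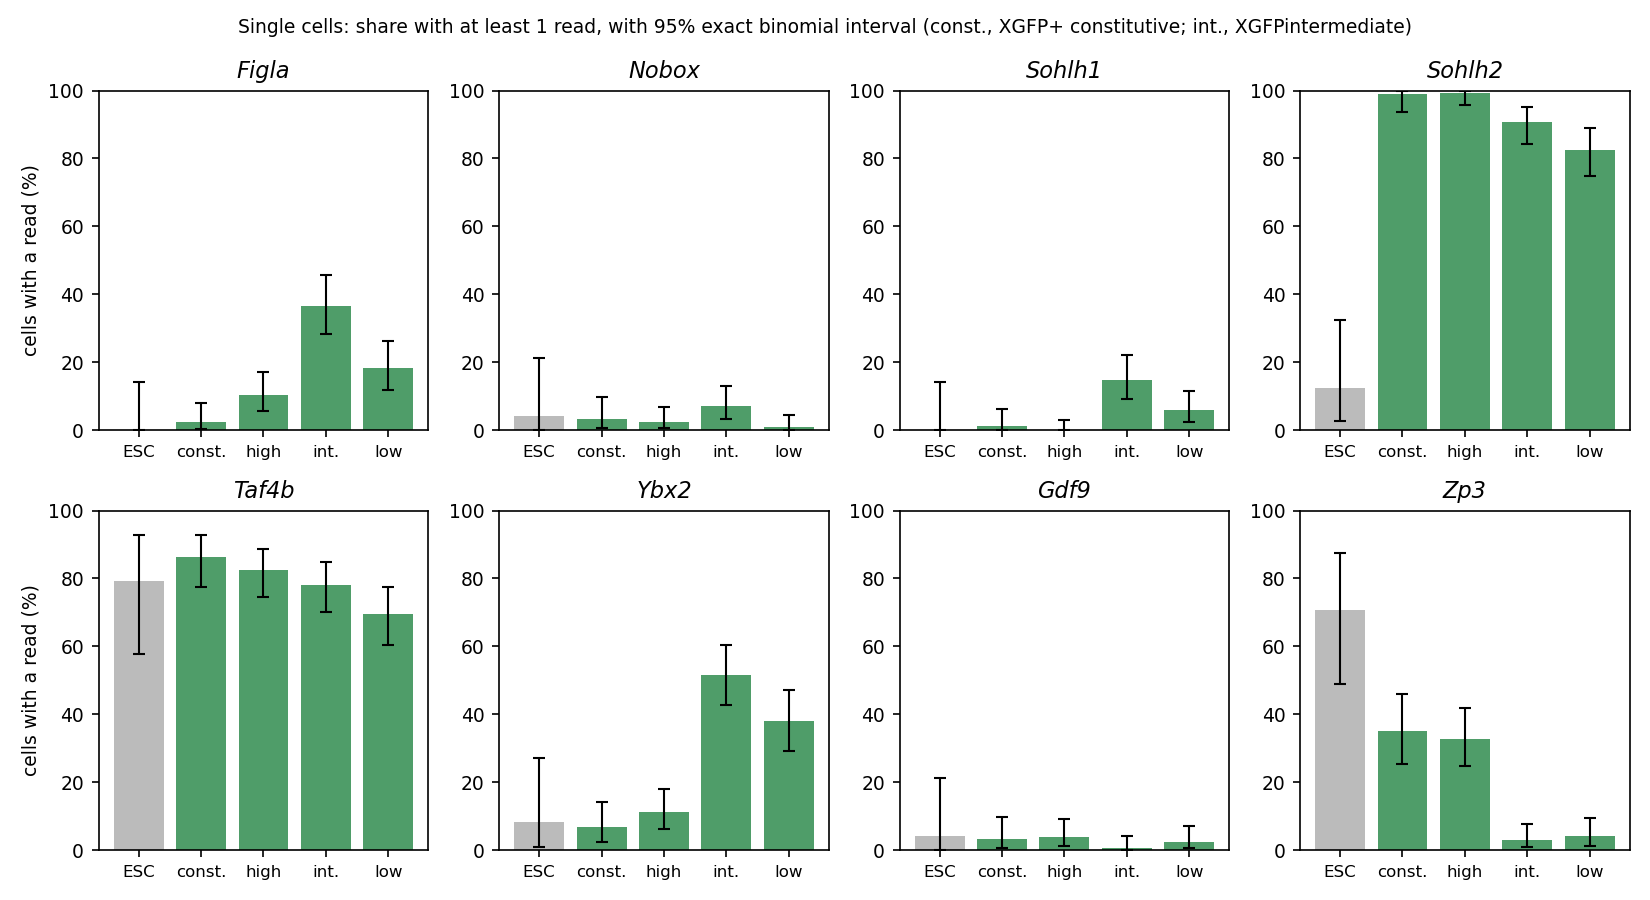
Share of single cells with at least 1 read (y axis, percent) of each listed member, for ESCs (grey) and the 4 rOvary populations (green), with exact 95% binomial intervals that cover counting error only. Figla, Sohlh1 and Ybx2 are most often seen in XGFPintermediate cells (36.7%, 14.8% and 51.6%), and Zp3 in ESCs (70.8%), XGFP+ constitutive (35.2%) and XGFPhigh cells (32.8%).

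XGFPhigh and XGFP+ constitutive cells, which differ in the PGCLCs they came from, were also set side by side. Figla was 8.08 CPM in XGFPhigh and 0.636 CPM in XGFP+ constitutive cells, and on lane 2 alone, where 14 XGFPhigh cells stand against 88, it was 4.98 against 0.636 CPM, from 1 XGFPhigh cell. Taf4b was 2.05-fold higher in XGFPhigh over all cells and 1.09-fold (0.966 to 1.22) on lane 2 alone. Zp3 was 0.886-fold (0.781 to 1.01) over all cells and 0.725-fold (0.574 to 0.909) on lane 2 alone. Over all genes, 8.43% were at least 2-fold higher in XGFPhigh and 8.50% at least 2-fold lower, and 4 (Figla, Nobox, Taf4b and Ybx2) and 1 (Sohlh1) of the 8 members were. On lane 2 alone, Nobox and Ybx2 turned direction on few reads: Nobox had 0 reads in XGFPhigh and 17 in XGFP+ constitutive cells, and Ybx2 was 0.373-fold (0.0412 to 1.62), so that of the 4 only Figla stayed over 2-fold. The lower Sohlh1 rests on 6 reads in 1 of 88 XGFP+ constitutive cells. Its bound on lane 2 alone, at most 1.31-fold, gives no direction.

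The genes most like each widespread member across the 462 cells were ranked by Spearman's rho of log2(CPM + 1) among 10375 genes with a read in at least 20% of cells. All cells share their population's culture and depth, so rho is a description. For Sohlh2 they were Maged1 (0.51), Tex19.1 (0.50) and Rhox1 (0.45). For Taf4b they were Ddx10 (0.42), Bub1 (0.41) and Ints6 (0.41), and for Ybx2 Zcwpw1 (0.45), Tdrkh (0.45) and Stk31 (0.44). Zcwpw1 encodes a reader of the histone marks set by PRDM9 in meiosis, and Tdrkh a Tudor protein of the piRNA pathway. Figla and Zp3 have reads in under 20% of cells and were added after their values were seen. Figla was most like Gm4969 (0.62), Dmrtc2 (0.60) and Mtl5 (0.59), and Zp3 like Slc7a3 (0.48), Car2 (0.47) and Slc25a5 (0.47). Between members over all 462 cells, the highest rho was 0.36 for Figla with Ybx2. Within XGFPintermediate it was 0.48 for Figla with Nobox and 0.47 for Figla with Taf4b, with 0.22 for Figla with Ybx2. In XGFPhigh and XGFPlow, rho of Figla was 0.13 and -0.04 with Nobox, 0.33 and 0.23 with Taf4b, and 0.4 and 0.28 with Ybx2.

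Before the rOvary stage, the bulk libraries give the 4 listed members in ESCs, EpiLCs and both kinds of PGCLC, as reads normalised by the authors' size factors. Changes were tested with limma on log2(normalised count + 1) over all 16281 genes with a mean above 10, and called at a Benjamini-Hochberg adjusted p under 0.001. The methods describe clones with technical repeats of each, and the labels number the libraries 1 to 4 without saying which is which, so the p-values rest partly on technical spread and may be too small. Between XGFP- and XGFP+ PGCLCs, Sohlh2 and Zp3 were lower in XGFP- and Taf4b and Ybx2 were not called: 2 of 4 members, where 23.8% of all genes were called, 11.3% higher and 12.5% lower.

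Sohlh2 was at 943, 835, 812 and 914 normalised counts in XGFP+ PGCLC replicates 1 to 4 and at 80.6, 96.5, 67.3 and 162 in XGFP-. It was at 403, 327, 345 and 260 in EpiLCs and at 496, 1245, 384 and 646 in ESCs. All 4 XGFP- libraries lay below every other library, while ESCs were spread widely and overlapped XGFP+ PGCLCs. The change from XGFP+ to XGFP- was -3.17 on the log2 scale (SE 0.283, limma adjusted p = 6.2e-08). Against EpiLCs, Sohlh2 was 1.40 higher in XGFP+ PGCLCs (adjusted p = 2e-04) and changed by -1.77 in XGFP- PGCLCs (adjusted p = 1.4e-05), so it moved in opposite directions in the 2 kinds of PGCLC. The XGFP+ call against EpiLCs was lost without EpiLC replicate 4 (1.29, adjusted p = 0.0011).

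Zp3 was at 120.6, 73.8, 68 and 67.2 normalised counts in XGFP+ PGCLCs and at 6.07, 6.10, 5.77 and 6.18 in XGFP-, where each library held 6 or 7 reads. In EpiLCs it was at 75.2, 41.5, 50.7 and 42.5, and in ESCs at 231, 228, 336 and 339. The ESC libraries were above all others and the XGFP- PGCLC libraries below all others, and EpiLCs and XGFP+ PGCLCs overlapped. The change from XGFP+ to XGFP- was -3.52 on the log2 scale (SE 0.226, limma adjusted p = 1.2e-09), from ESC to EpiLC -2.43 (adjusted p = 2e-08) and from ESC to XGFP- PGCLC -5.31 (adjusted p = 2.1e-13). Beside it, the naive pluripotency gene Tbx3 fell from 239 ± 62.5 in XGFP+ to 9.76 ± 2.83 in XGFP- PGCLCs and Zfp42 from 15040 ± 1505 to 5757 ± 1171 normalised counts (SD, n = 4). Klf4 was also called lower (-0.94 on the log2 scale), while Esrrb (-0.51, limma adjusted p = 0.062) and Nanog (-0.25, adjusted p = 0.023) were not called. From EpiLC to XGFP- PGCLC, Zp3 (-2.89) and Tbx3 (-2.23) were lower. Zfp42 (1.58), Esrrb (3.33) and Nanog (1.46) were higher there, and Klf4 was not called. The part of these genes in the Zp3 change was not tested.

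Ybx2 was low in ESCs (140, 251, 93.6 and 105) and EpiLCs (261, 243, 207 and 192) and higher in both kinds of PGCLC. It was at 739, 701, 829 and 721 in XGFP+ and at 1159, 1051, 894 and 926 in XGFP- PGCLCs. No XGFP- library overlapped an XGFP+ library, but the change of 0.42 on the log2 scale (95% interval -0.02 to 0.87) did not pass the test (limma adjusted p = 0.11). Against EpiLCs Ybx2 rose by 1.73 in XGFP+ (adjusted p = 5.6e-07) and by 2.16 in XGFP- PGCLCs (adjusted p = 2.5e-08), and against ESCs by 2.44 (adjusted p = 7.9e-09) and 2.87 (adjusted p = 4.7e-10).

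Taf4b was at 2348 to 2639 in XGFP+ PGCLCs, 2426 to 2685 in XGFP- PGCLCs, 2067 to 2433 in EpiLCs and 2291 to 2629 in ESCs. The groups overlapped, and Taf4b was called in none of the 6 comparisons at this threshold. Between the PGCLCs the change was 0.01 on the log2 scale, with an interval of -0.13 to 0.16. At an adjusted p under 0.05, Taf4b was called higher in XGFP+ (0.17, adjusted p = 0.03) and XGFP- PGCLCs (0.18, adjusted p = 0.019) than in EpiLCs.

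Counted over the 4 tested members, 1 was called between EpiLCs and ESCs (Zp3, lower), where 47.8% of all genes were called, 24.9% higher and 22.9% lower. Between XGFP+ PGCLCs and EpiLCs 2 were called (Sohlh2 and Ybx2, higher), where 57.3% of genes were, 27.8% higher and 29.5% lower. Between XGFP- PGCLCs and EpiLCs 3 were called (Ybx2 higher, Sohlh2 and Zp3 lower), where 61.9% were, 29.9% higher and 31.9% lower. Against ESCs 2 were called in XGFP+ PGCLCs (Ybx2 higher, Zp3 lower), where 49.9% were, 25% higher and 24.9% lower. In XGFP- PGCLCs 3 were called against ESCs (Ybx2 higher, Sohlh2 and Zp3 lower), where 59.4% were, 29.8% higher and 29.6% lower. These comparisons share groups and are not independent of each other. Per kilobase of exon, Taf4b was the highest of the 4 in ESCs, EpiLCs and XGFP+ PGCLCs (467, 438 and 492 normalised counts per kilobase), and Ybx2 in XGFP- PGCLCs (534 against 496 for Taf4b).

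**Figure D4:**
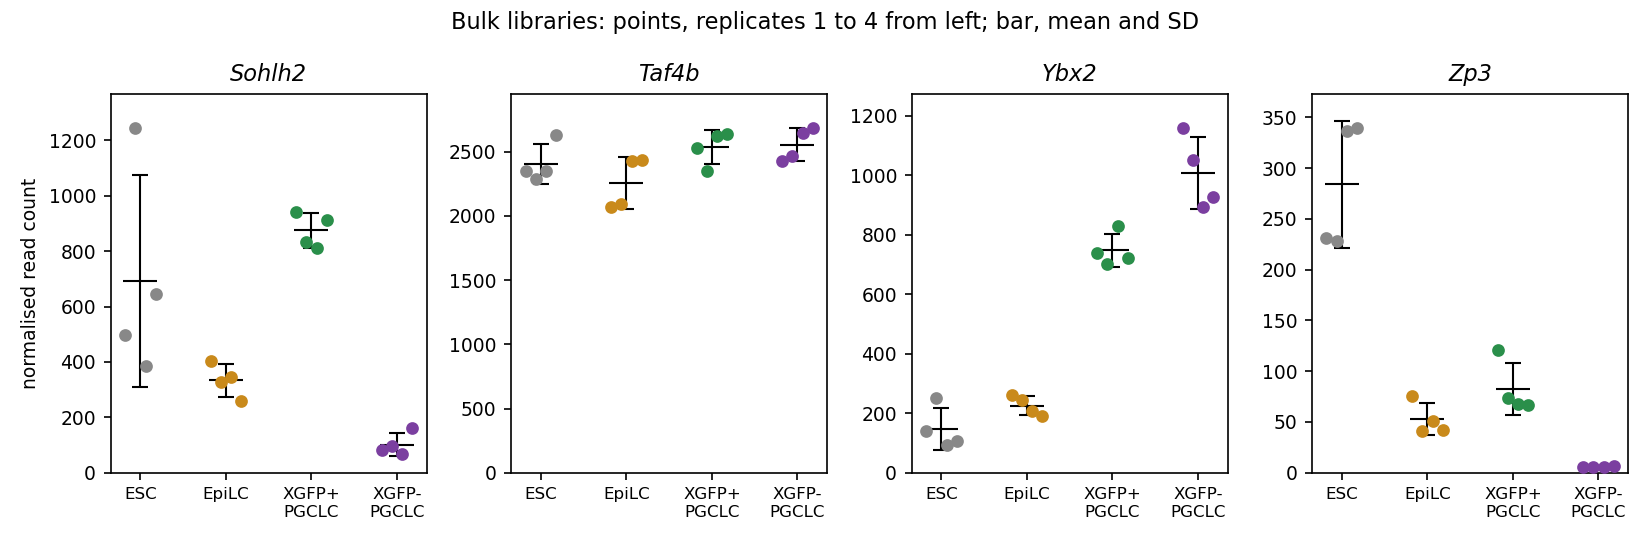
Normalised read counts (y axis, from 0) of the 4 members listed in the bulk table, in ESC, EpiLC, XGFP+ PGCLC and XGFP- PGCLC libraries. Points are replicates 1 to 4 from left to right, and the bar gives the mean and SD. XGFP- PGCLCs are lowest for Sohlh2 (67.3 to 162) and Zp3 (5.77 to 6.18) and highest for Ybx2 (894 to 1159), and Taf4b overlaps between all groups.

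A wider list of 23 other oocyte genes (transcription factors, zona pellucida, growth signalling, the subcortical maternal complex, and chromatin, translation and arrest factors) was counted as a whole. Of these, 15 are listed in the single-cell table: in high-Sycp3 cells 3 were at least 2-fold higher (Cpeb1, Stat3 and Npm2) and 10 at least 2-fold lower, with a median log2 fold of -1.70, where 17.9% of all genes were higher and 36.3% lower, with a median of -0.40. Cpeb1, an RNA-binding protein that controls translation of stored messages, was in all 47 high-Sycp3 cells at 130 CPM and in 246 of the other 415 at 37.2 CPM. Stat3 was at 60.7 against 17.6 CPM. Kit, the receptor for stem cell factor, was 5.75-fold lower (6.90 against 39.7 CPM), and the subcortical maternal complex genes Ooep (13.7-fold), Tle6 (2.41-fold) and Zbed3 (3.66-fold) were lower too, while Khdc3 had 0 reads in the 47 cells and 11.5 CPM in the others. Zp1 and Zp2, the other zona genes listed, had no read in the high-Sycp3 cells and were in under 1% of all rOvary cells.

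In bulk, 12 of the 23 were tested. Between XGFP- and XGFP+ PGCLCs, Kit was higher (0.51 on the log2 scale, limma adjusted p = 0.00022) and Ooep (-2.26, adjusted p = 7.5e-07), Khdc3 (-2.85, adjusted p = 2.1e-06) and Dynll1 (-0.41, adjusted p = 0.00014) were lower, and 8 were not called. From EpiLCs to both kinds of PGCLC, Kit, Tle6 and Cpeb1 were called higher (Kit 4.55 and 5.07, Tle6 5.16 and 4.45, Cpeb1 1.23 and 1.17) and Stat3, Dynll1, Zbed3 and Mos lower, and Stat3 changed by -1.29 in XGFP+ and -1.48 in XGFP- PGCLCs.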

How the data were processed

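Bulk RNA (16 libraries) and single-cell RNA (552 wells) were analysed. The deposited bulk values are a normalized signal: per the labels and methods, the authors aligned stranded reads to mm10 with STAR, counted them per gene with HTSeq 0.6.1 and divided each library by its DESeq2 1.16 size factor. Whole reads were recovered from these values (all within 0.01 of a whole read); in units of 1000000 they summed to 29.8 to 46.5 per library. The single-cell values are the authors' deposited raw read counts per gene (SMART-seq, no molecular identifiers, not stranded), so intervals and floors cover counting error only. Whether bulk counting used strand is not given in the sources used here. Allelic ratio tables were not used. Gene IDs were named from GENCODE vM21 tables; 238 of 16335 had no name.

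Bulk changes were tested with limma 3.58.1 (R 4.3.3; trend, log2(normalized count + 1), 1 model over 16 libraries, group as the only term, two-sided, Benjamini-Hochberg over 16281 genes); edgeR 4.0.16 and DESeq2 1.42.0 were run on recovered reads as alternatives. Tested on simulated data for XGFP- against XGFP+ PGCLCs (16226 genes, 200 changed), limma recovered 94.5% with 0 false calls. The simulated libraries were independent, without clones or technical repeats, so this checks the code and gives no error rate for these data. Same-numbered XGFP- and XGFP+ PGCLC libraries deviated together (correlations 0.135 to 0.307 in 4 of 4 pairs), so that pairing was taken from the data and fitted as an alternative; in the other comparisons at most 2 of 4 pairs exceeded 0.1. The limits on genes, reads and mitochondrial share are the study's; its further limits on cells, such as Dazl above 1 (401 of the 462 cells, run here as an alternative), were not applied; doublets were not called, since wells were filled by single-cell sorting. Exact binomial and Poisson 95% intervals were made with scipy 1.17.1, and cells were thinned to 280000 reads, leaving out 23 rOvary cells, 9 of them XGFP+ constitutive. Khdc3 was matched through its RefSeq synonym. The text names all members, genes of the wider list that pass the test or have reads in at least 20% of cells (Npm2, Zp1 and Zp2, and the marker genes set beside a result, were added after their values were seen), and for members in at least 20% of rOvary cells the 3 genes of highest rho. The members and lists were chosen with earlier results of these data known.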

Additional observations from a re-analysis of the deposited data

Results flagged for a closer look

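Zp3 in XGFP+ PGCLC replicate 1 stood apart from its group: 120.6 normalised counts, where the nearest of the other 3 libraries had 73.8 and the lowest 67.2. The gap was 0.875 of the group's range, above the limit that Dixon's test sets for 4 samples. It was the only one of 16 sets of 4 libraries (4 members in 4 groups) to pass that limit, and chance passes about 1 in 20. Without that library, the Zp3 difference between XGFP- and XGFP+ PGCLCs was -3.33 on the log2 scale (limma adjusted p = 6.3e-09), against -3.52 with it.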

How the results depend on the processing

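Of 432 bulk log2 changes recomputed under alternatives, 420 kept their direction and side of the threshold. Taf4b between XGFP- and XGFP+ PGCLCs, not called, turned sign with quantile normalisation (-0.028), with edgeR (-0.01) and on leaving out single libraries (range -0.023 to 0.038). The number of members called between EpiLCs and ESCs was 3 at an adjusted p under 0.05 and 1 to 2 on leaving out single libraries (2 without ESC replicate 2, when Ybx2 passed with 1.00 and adjusted p = 5.4e-06). Between XGFP+ PGCLCs and EpiLCs it was 4 at 0.05 and 1 to 2 on leaving out libraries (1 without EpiLC replicate 4). The replicate block, fitted for all 6 comparisons, changed none of 30 values or calls. Every group holds the same replicate numbers, so the block could not move a log2 change and only the calls could differ. With the pairing, 2 members were called between XGFP- and XGFP+ PGCLCs.

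In single cells, the number of members at least 2-fold higher in XGFPintermediate than in XGFPhigh was 5, and 1 on lane 2 alone, where the populations hold 16 and 14 cells. The number higher with high Sycp3 was 5, and 3 by the median over cells, since Nobox and Sohlh1 have a median of 0. Of 53 Sycp3 folds, 15 stayed within counting error or 1.5 times the main bound, 36 moved with the same direction and 2 reversed: Sohlh1 was at most 0.0771-fold by reads at the 95th percentile, and Gdf9 was 2.29-fold at the 80th, from 1 cell. Another 3 gave no direction (Nobox in XGFPlow, Sohlh1 and Gdf9 in XGFPhigh). Figla ranged from 4.87-fold (XGFPlow alone) to 96.8-fold (XGFPhigh alone, added after seeing the data). Of 176 shares, 148 stayed within their interval, including all under thinning. Reads per cell limit Gdf9, Nobox and Ybx2.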

Other observations

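ESCs were measured in both assays, and the members ranked differently in them. In bulk, Sohlh2 averaged 693 ± 384 normalised counts and Zp3 284 ± 62.5 (SD, n = 4), whereas Sohlh2 had a read in 3 of 24 single ESCs and Zp3 in 17. A mean level and a share of cells are unlike measures. By summed level the single ESCs were closer, at 12.2 CPM for Sohlh2 and 18.5 CPM for Zp3. Ybx2 averaged 148 ± 71.8 in bulk ESCs and had 2 reads in all 24 cells. The libraries differ in kit, and whether this accounts for the order was not tested.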
